A study of Mus musculus with 59 samples.

Results

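The genes described here are 32 genes of myelin and of Schwann cells, taken by their symbols from the 24972 genes in each of the soleus and gastrocnemius tables. They were sorted by what each is known to do. The list holds 14 genes of the myelin sheath, 3 transcription factors, 4 genes of the contact between axon and glia, 4 signals or receptors and 7 genes grouped as general Schwann cell genes.

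Schwann cells are the glia of peripheral nerves, and in muscle they ensheathe the motor and sensory axons and cover the nerve endings on the fibres. A myelinating Schwann cell wraps 1 stretch of axon in compacted membrane, which speeds conduction, and Sox10 with Egr2 switches on the genes for the proteins and lipids of that membrane. After nerve damage these cells lose their myelin genes and take up a repair state, in which genes such as Ngfr, Gdnf and Jun are active.

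Soleus came from male wild-type C57BL/6 mice on a standard diet that were 41 weeks old and had fasted for 16 h. Of these, 5 were untreated (Ut) and 5 had received hydroxycitrate (HC), an inhibitor of ATP-citrate lyase, at 7.5 g per kg of diet from 20 weeks of age. Gastrocnemius came from male wild-type C57BL/6 mice about 6 months old in 5 groups of 3, namely mice with no injection (C) and mice given 10 µM cardiotoxin (CTX) in the left hind limb and killed at 2 or 30 days post injury (DPI), with no HC (CTX) or with HC in the diet after the injection (CTX-HC). Cardiotoxin is a snake venom peptide that lyses muscle fibres. By the methods of the paper, C and 2 DPI mice came from a control group that was divided after tests of physical performance. The 30 DPI mice were injected before those tests. HC was given for 2 or 30 days, so time since injury and length of HC cannot be told apart. No uninjured gastrocnemius had received HC, and every comparison with C shared the same 3 libraries. No label says more of how the replicates were obtained, so p-values measure the spread between these samples.

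Soleus RNA had been depleted of rRNA and gastrocnemius RNA had been selected for mRNA, so levels were not compared between the muscles. The values are gene counts that the authors had scaled by the median of ratios, with no correction for gene length. Estimated depth was 8.93 to 11.2 M reads in soleus and 16.0 to 34.9 M in gastrocnemius. In gastrocnemius CTX-HC 30 DPI 3 stood apart. It correlated with its own group at 0.866 to 0.868 and most with CTX 2 DPI 2 (0.932). CTX 2 DPI 3 correlated most with C 1 (0.970), an uninjured library, and with its own group at 0.94 to 0.959. Many other gastrocnemius libraries were also most like a library of another group, every CTX 30 DPI library among them. In soleus HC 1 was most like Ut 1 (0.979, against 0.955 to 0.967 with its own group). HC 5 was most like Ut 4 (0.98, against 0.967 to 0.976), and Ut 5 most like HC 3 (0.98). A gene was tested when its value reached 10 in at least 5 soleus or 3 gastrocnemius libraries, and fold changes are on the scale of log2(value + 1). This left 28 of the 32 genes in soleus, without Gjb1, Cmtm5, Sostdc1 and Ngfr, and 29 in gastrocnemius, without Gjb1, Cmtm5 and Sostdc1.

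The first question was whether myelin and Schwann cell genes differed between the soleus of HC and Ut mice. The myelin genes had higher values in HC mice as a block, but the size of the difference varied widely from mouse to mouse and no gene passed the test across all genes. Of the 28 genes tested, 26 had a higher mean in HC mice, with a median log2 fold change of 0.80 beside -0.01 over the 12067 genes tested. No gene of the 28 passed an adjusted p of 0.05 in limma, and neither did any other gene (0% of genes called), with a lowest adjusted p of 0.654 among the 28. At an unadjusted p under 0.05 there were 18 of the 28 and 609 of all genes (5.05%). Under the limit of the study, an unadjusted p no higher than 0.05 together with a log2 fold change of 1 or more in size, 11 of the 28 were higher in HC mice, where 33 of all genes were (0.273%). The genes were chosen with earlier results of these data known, and the paper reported altered myelination in soleus. These shares are therefore a description and no test of the list. Counts at the limit of the study come here from limma on the scaled values, and not from the test on gene counts that the paper used. The paper reported more genes as higher in HC mice at that limit in soleus. It also reported more genes at that limit between injured mice with and without HC, at both times. The counts given here are therefore not those of the paper. In bulk tissue more or fewer Schwann cells and more or less RNA per Schwann cell cannot be told apart.

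The limit on low values favours genes that are high in either group. In every Ut mouse 19 of the 28 genes reached a value of 10, and 17 of these 19 had a higher mean in HC mice, with a median log2 fold change of 0.59 and 4 at the limit of the study. The other 9 genes, under 10 in at least 1 Ut mouse, held 7 of the 11 at that limit. All 32 genes fitted with no limit gave 29 with a higher mean in HC mice and a median of 0.69. The genes below are described by role. As none passed the adjusted test, those given in every mouse were chosen after their values were seen.

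**Figure D1:**
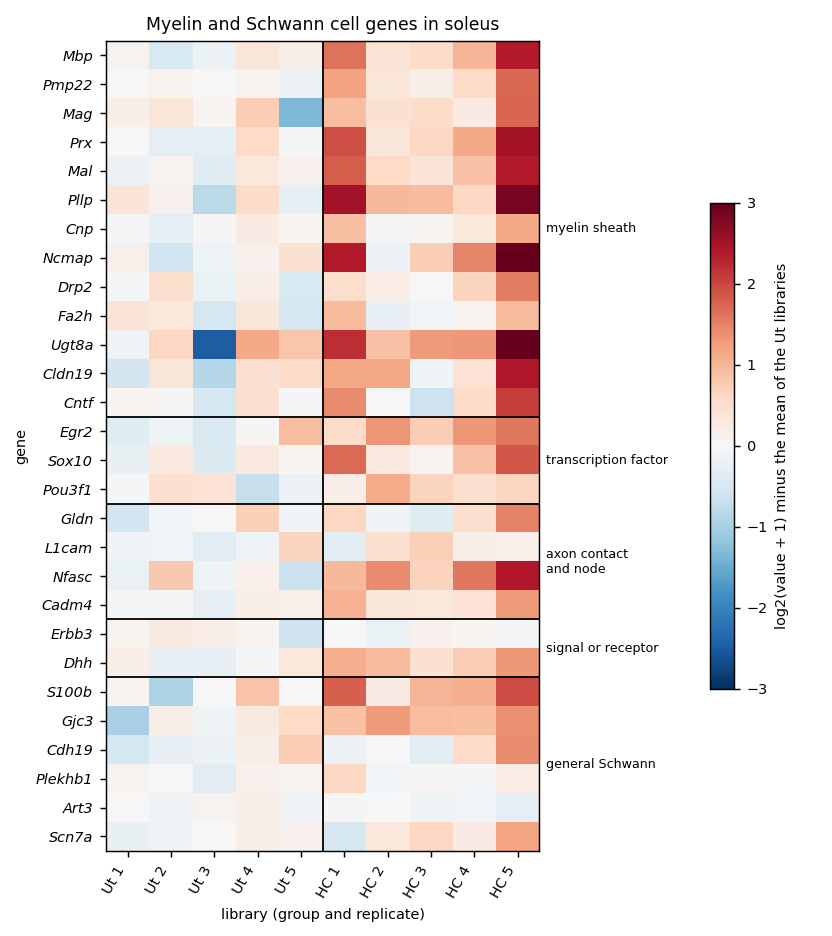
Heat map of the 28 genes tested in soleus (rows, by role) in the 10 mice (columns), coloured by log2(value + 1) minus the mean of the 5 Ut mice, with colours ending at -3 and 3. HC 5 and then HC 1 are the reddest columns over the myelin sheath genes, and the rows of Erbb3, Plekhb1 and Art3 stay pale.

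The myelin sheath genes had a higher mean in HC mice in 13 of 13 tested, with a median log2 fold change of 1.01. Mbp encodes myelin basic protein, which holds the cytoplasmic faces of the myelin membrane together. Its value was 383, 259.9, 316, 461 and 411 in Ut 1 to 5 and 1116, 476, 527, 726 and 1872 in HC 1 to 5. The groups did not overlap, although HC 2 lay just above the highest Ut mouse and HC 5 far above it. The means were 366 ± 79.1 in Ut and 944 ± 577 in HC (SD, n = 5 each), with a log2 fold change of 1.20 ± 0.32 (SE) and an adjusted p of 0.746 in limma.

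Prx encodes periaxin, which links the outer surface of the Schwann cell to its cytoskeleton together with the product of Drp2. Prx was at 133, 111, 110.0, 203 and 128 in Ut 1 to 5 and at 515, 170.2, 207, 293 and 763 in HC 1 to 5. Here Ut 4 stood above HC 2, so the groups overlapped, and the log2 fold change was 1.31 ± 0.35 with an adjusted p of 0.746. Drp2 was 158 ± 42.8 in Ut and 249 ± 116 in HC, with 448 in HC 5 against a highest Ut value of 222.

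Pmp22, a membrane protein of compact myelin whose dosage causes inherited neuropathies, was at 485, 531, 489, 519 and 437 in Ut and at 1129, 631, 552, 738 and 1627 in HC 1 to 5. Mal, a proteolipid that carries membrane to the myelin sheath, was at 28.6, 34.8, 25.2, 40.4 and 35.5 in Ut and at 117, 49.98, 42.8, 60.4 and 173 in HC. Pllp, the tetraspan protein plasmolipin, was at 12.7, 10.5, 5.04, 14.5 and 7.78 in Ut and at 59.6, 19.5, 19.3, 15.3 and 75.4 in HC. In all 3 genes the groups did not overlap, and HC 5 was the highest mouse and HC 1 the next. Their log2 fold changes were 0.81 ± 0.24, 1.21 ± 0.33 and 1.58 ± 0.45.

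Ncmap, Ugt8a and Cldn19 also lay at the limit of the study. Ncmap, a noncompact myelin protein, ranged from 6.00 to 13.2 in Ut (median 10.3) and was at 52.6, 8.10, 16.2, 27.6 and 82.8 in HC 1 to 5, a log2 fold change of 1.48 ± 0.50. Ugt8a, the enzyme that makes the galactolipids of myelin, ranged from 0 to 11.3 in Ut and from 9.19 to 45.9 in HC, a log2 fold change of 1.75 ± 0.65 at low values. Cldn19, a claudin of the tight junctions within the myelin sheath, was 24.7 ± 10.2 in Ut and 56.4 ± 41.2 in HC, with 126 in HC 5. For these 3 genes the groups overlapped.

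The other sheath genes differed less. Mag, an adhesion molecule of the membrane next to the axon, had a log2 fold change of 0.79 ± 0.40, and Cnp, an enzyme of noncompact myelin, had 0.48 ± 0.21. Cntf, a neurotrophic factor made by myelinating Schwann cells, was at 66.8 in HC 1 and 105 in HC 5, while HC 2 and HC 3 (24.7 and 15.5) lay within the Ut range of 16.7 to 34.3. Fa2h, which hydroxylates the fatty acids of myelin lipids, had a log2 fold change of 0.33 ± 0.29. Gjb1, the connexin of noncompact myelin, was too low to be tested, with 19.1 in HC 1, 17.3 in HC 5 and at most 9.83 in the other 8 mice.

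**Figure D2:**
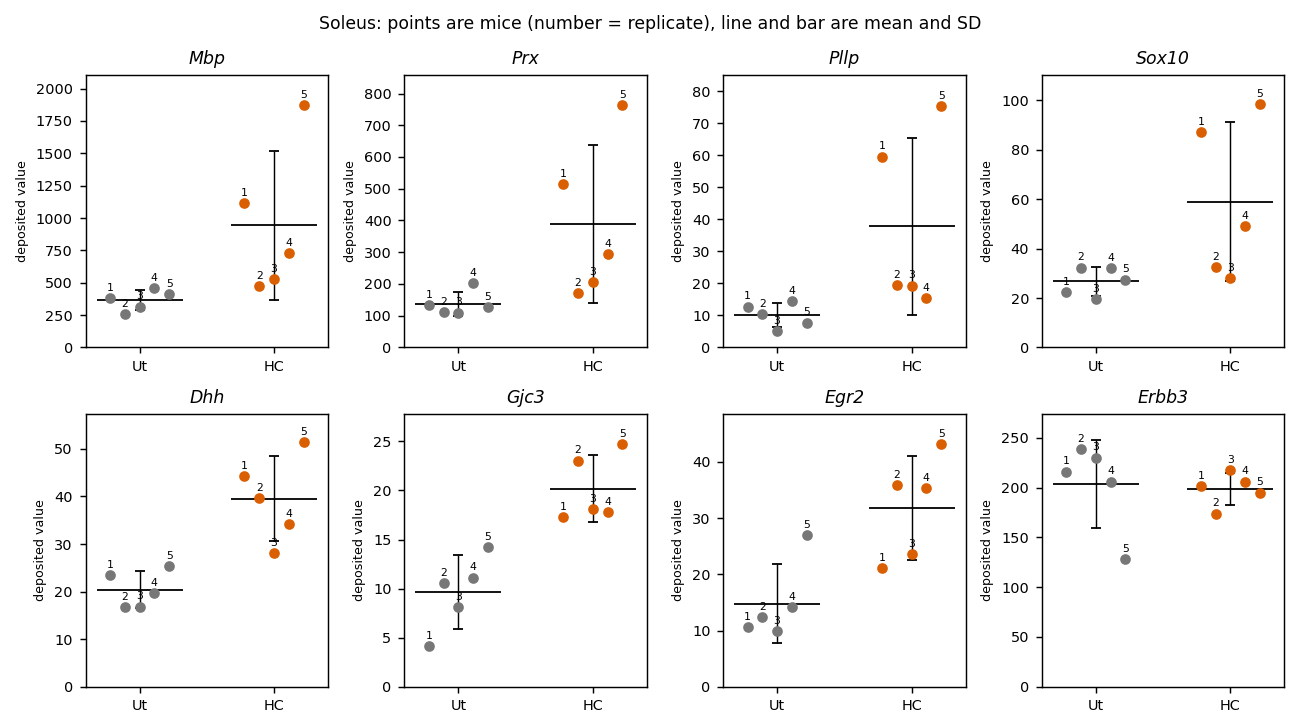
Deposited values (y axes, from 0, normalized by the median of ratios) of 8 genes in soleus, with 1 point per mouse numbered by replicate, the mean as a line and the SD as a bar. For Mbp, Prx, Pllp and Sox10 the mice HC 1 and HC 5 lie far above the other HC mice, for Dhh and Gjc3 all 5 HC mice lie above all Ut mice, and for Erbb3 the groups share a range.

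The difference was largest in HC 5 and HC 1. HC 5 had the highest value of the 10 mice for 23 of the 28 genes and for 13 of the 13 sheath genes, and HC 1 was the highest or second for 16 of the 28. Against the mean of the Ut mice, the median over the sheath genes was 2.38 in HC 5 and 1.42 in HC 1 on the log2 scale, and 0.36, 0.39 and 0.63 in HC 2, HC 3 and HC 4. The Ut mice ran from -0.28 to 0.36 on the same measure, so HC 2 lay level with the highest of them. With HC 1 and HC 5 left out, an alternative added after the data were seen, 22 of the 28 genes still had a higher mean in HC mice. Their median was 0.44, 12 of the 28 had an unadjusted p under 0.05 in limma and 0 passed the adjusted test. At the limit of the study were 3 genes, namely Egr2 (1.11), Nfasc (1.22) and Gjc3 (1.04). With HC 5 alone left out, 5 genes were at that limit, and the median over the 28 was 0.60.

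Sox10 and Egr2 differed from each other in which mice were high. Sox10, the factor that every Schwann cell needs, was at 22.4, 32.3, 19.4, 32.3 and 27.4 in Ut and at 87.2, 32.4, 28.2, 49.2 and 98.3 in HC, with HC 5, HC 1 and HC 4 the highest as for the sheath genes. Its log2 fold change was 0.97 ± 0.33. Egr2, the factor that drives myelination, was at 10.6, 12.3, 9.85, 14.1 and 27.0 in Ut and at 21.1, 35.9, 23.6, 35.3 and 43.2 in HC, so that HC 1 had the lowest value among HC mice. Its log2 fold change was 1.1 ± 0.29 (adjusted p = 0.746 in limma) and stayed at 1.11 without HC 1 and HC 5. Egr2 is also an immediate early gene outside nerve. Atf3, another early response gene, moved over the mice in part the same way, with 3014 in Ut 5 and 6248, 5530 and 4853 in HC 2, HC 3 and HC 4, against 296 to 941 in the other 6 mice, and its part in the Egr2 values was not tested. Pou3f1, which acts before Egr2 as Schwann cells begin to myelinate, had a log2 fold change of 0.62 ± 0.27, with its highest value in HC 2 (28.0).

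Among the genes of axon contact, Cadm4, an adhesion molecule by which Schwann cells hold the axon, was at 90.04, 89.96, 77.6, 106 and 103.8 in Ut and at 192, 119, 117, 126 and 227 in HC. The groups did not overlap, and the log2 fold change was 0.69 ± 0.19. Nfasc, whose glial form sits beside the node of Ranvier, was at 6.42, 13.8, 6.79, 8.34 and 4.45 in Ut and at 15.5, 21.6, 12.4, 24.5 and 43.4 in HC, a log2 fold change of 1.41 ± 0.36 with an overlap of 1 mouse on each side. Gldn, the gliomedin that gathers sodium channels at nodes, had 0.42 ± 0.34. L1cam, typical of Schwann cells that do not myelinate and of axons, had 0.24 ± 0.22.

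Dhh had the lowest p of the 28 genes. It encodes desert hedgehog, the signal by which Schwann cells organise the sheath around a nerve, and its value was 23.4, 16.8, 16.9, 19.7 and 25.4 in Ut and 44.4, 39.7, 28.2, 34.2 and 51.4 in HC. Every HC mouse was above every Ut mouse, and HC 1 and HC 5 stood out less than for the sheath genes. The log2 fold change was 0.91 ± 0.20, with an adjusted p of 0.654 in limma, and it was 0.71 ± 0.22 without HC 1 and HC 5. In contrast Erbb3, the receptor through which axonal neuregulin reaches Schwann cells, was 204 ± 43.9 in Ut and 199 ± 16.2 in HC, a log2 fold change of -0.01 ± 0.15. Ngfr and Sostdc1 were at or below 12.8 in every mouse.

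The general Schwann cell genes did not share 1 pattern. S100b, a calcium-binding protein of Schwann cells, was at 40.2 in HC 1 and 45.3 in HC 5 and between 13.3 and 24.4 in the other HC mice, against 5.29 to 20.7 in Ut, a log2 fold change of 1.22 ± 0.37. Gjc3, a connexin of glia, was at 4.13, 10.5, 8.10, 11.1 and 14.2 in Ut and at 17.3, 23.03, 18.1, 17.8 and 24.7 in HC, with no overlap and a log2 fold change of 1.07 ± 0.30. Cdh19, a cadherin of Schwann cells and their precursors, had 0.30 ± 0.35. Scn7a, a sodium channel of nonmyelinating Schwann cells, had 0.37 ± 0.24, with its lowest value in HC 1 (47.2) and its highest in HC 5 (154). Plekhb1 and Art3 had log2 fold changes of 0.15 ± 0.14 and -0.10 ± 0.09, and Cmtm5 was at or below 10.2 in every mouse.

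Altogether 7 of the 28 genes (25.0%) had every HC mouse above every Ut mouse, namely Mbp, Pmp22, Mal, Pllp, Gjc3, Dhh and Cadm4. Over all genes tested 69 of 12067 did (0.572%), which is again no test of a list chosen with earlier results known. None of the 28 had every HC mouse below every Ut mouse.

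The stretch of 250 bases before the start site is shown for Prx, Pllp and Cadm4, which were higher in HC mice, so that the sites bound by the factors named above can be looked for. Sequences are from a RefSeq promoter set on GRCm38.p6 that held 24 of the 32 genes, with 44 start sites in all. The other genes had no entry in that set, which does not mean that they lack a start site. Capitals mark ACAAAG or ACAATG (a Sox motif) and GTGGGCG or GTGGGTG (an Egr motif), read on both strands, and the 2 motifs share no letters in these stretches. The Prx stretch is chr7:27499074-27499323 on the plus strand, the Pllp stretch is chr8:94696243-94696492 on the minus strand and the Cadm4 stretch is chr7:24481773-24482022 on the plus strand, each written 5′ to 3′ along its gene.
Prx: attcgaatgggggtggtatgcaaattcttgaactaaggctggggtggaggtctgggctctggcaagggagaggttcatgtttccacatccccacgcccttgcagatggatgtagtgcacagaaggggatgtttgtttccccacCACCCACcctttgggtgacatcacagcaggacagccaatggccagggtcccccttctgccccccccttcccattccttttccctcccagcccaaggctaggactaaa
Pllp: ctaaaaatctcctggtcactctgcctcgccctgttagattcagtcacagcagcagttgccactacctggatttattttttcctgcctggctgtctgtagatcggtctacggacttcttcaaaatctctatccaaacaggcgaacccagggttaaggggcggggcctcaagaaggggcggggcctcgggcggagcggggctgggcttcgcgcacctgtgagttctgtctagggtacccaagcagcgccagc
Cadm4: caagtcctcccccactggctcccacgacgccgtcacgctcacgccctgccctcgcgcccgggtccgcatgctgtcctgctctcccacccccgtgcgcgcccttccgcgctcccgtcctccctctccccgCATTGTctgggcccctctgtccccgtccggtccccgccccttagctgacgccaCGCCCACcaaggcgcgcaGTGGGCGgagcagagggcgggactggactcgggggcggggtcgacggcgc
Prx held 1 Egr motif, Cadm4 held 2 Egr motifs and 1 Sox motif, and Pllp held neither. The Egr motif was in 10 of the 44 stretches (22.7%) and in 13.8% of all 32851 stretches of the same length. The Sox motif was in 9 of the 44 (20.5%) and in 25.2% of all. Start sites of 1 gene can overlap, and a match describes the letters alone.

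Other lists in soleus bear on what moved with these genes. Of 16 further Schwann and myelin genes 10 were tested, 9 had a higher mean in HC mice and 3 were at the limit of the study, with a median of 0.61. This list too was chosen with earlier results of these data known. Of 18 genes of the repair state 8 were tested, 7 had a higher mean in HC mice and none was at that limit, with a median log2 fold change of 0.20. Jun, the factor that starts the repair state, was at 1583 to 2156 in Ut and at 1974 to 2174 in HC. Atf3, described above, is also in this list. It was at 6248, 5530 and 4853 in HC 2, HC 3 and HC 4, at 502 and 920 in HC 1 and HC 5, and at 296 to 3014 in Ut. The sum of the 18 genes was 2759 to 5650 in Ut and 3291 to 9128 in HC. Sox2, Shh, Olig1, Gfap and Gap43 did not exceed 3.13 in any mouse. The 15 genes of neuregulin and myelin signalling, 4 of them among the 32, had 14 tested, 12 with a higher mean in HC mice and a median of 0.25, and none passed the adjusted test.

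Markers of other cells were read beside these values. The 6 oligodendrocyte markers, which would mark central myelin, summed to at most 3.32 in any mouse. Of 10 neuron markers 2 were tested, and the sum of the 10 was 306 to 473 in Ut and 310 to 475 in HC. Most of it was Uchl1, at 225 to 427 in Ut and 224 to 396 in HC. Stmn2 ran from 20.1 to 75.8 in Ut and from 45.1 to 95.8 in HC. Nefl, Nefm, Nefh, Snap25 and Chat did not exceed 3.37 in any mouse. The 5 nerve sheath genes tested of 8 had a median of 0.33. The sum of 8 macrophage markers was 340 to 604 in Ut and 233 to 1176 in HC, with HC 1 the lowest and HC 5 the highest of the 10 mice. Fibroblast markers (6 genes) gave the same order, 2909 in HC 1 and 9229 in HC 5 against 3430 to 4694 in Ut. The 2 mice with the highest sheath genes thus stood at opposite ends for both marker lists. Myofibre markers (8 genes) summed to 777903 to 916920 in Ut and 770913 to 972077 in HC.

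The next question was whether these genes changed in gastrocnemius after cardiotoxin, with and without HC. Libraries of 1 group differed widely, and 1 gene of the 29 passed the test, in 1 comparison. Art3 fell in CTX-HC 2 DPI against C. In each injured group 1 library was the highest or the lowest for 12 or 13 of the 13 sheath genes.

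**Figure D3:**
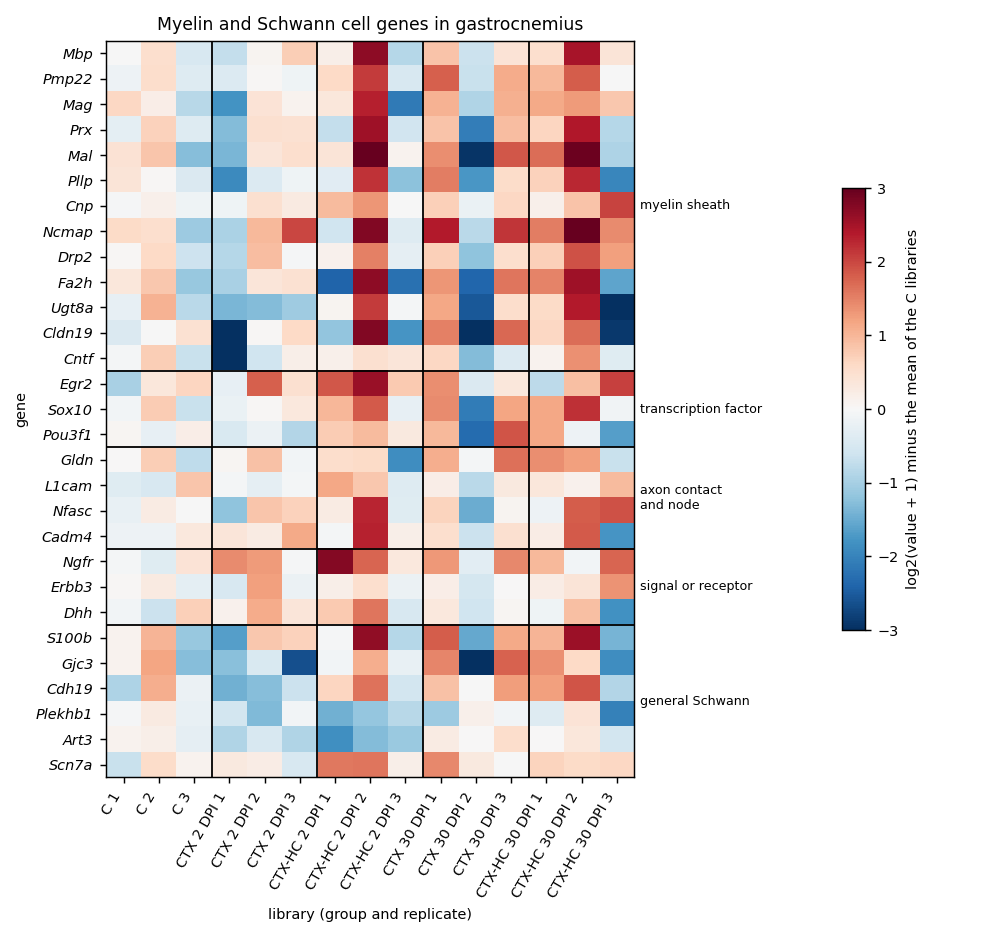
Heat map of the 29 genes tested in gastrocnemius (rows, by role) in the 15 libraries (columns), coloured by log2(value + 1) minus the mean of the 3 C libraries, with colours ending at -3 and 3. CTX-HC 2 DPI 2 and CTX-HC 30 DPI 2 are red and CTX 2 DPI 1 and CTX 30 DPI 2 are blue over the myelin sheath genes, each beside differently coloured libraries of its own group.

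Mbp showed the pattern most plainly. Its value was 321, 460.3 and 235 in C 1 to 3, 197, 344 and 542 in CTX 2 DPI, and 371, 2105 and 179 in CTX-HC 2 DPI. At 30 DPI it was 595, 209 and 437 in CTX and 459.9, 1815 and 430.0 in CTX-HC. One library of each HC group was above 1800, and the other 4 HC libraries ran from 179 to 459.9, against 197 to 595 in the 9 libraries without HC. The log2 fold change of CTX-HC 2 DPI against CTX 2 DPI was 0.64 ± 0.79 (SE, adjusted p = 0.783 in limma), and that of CTX-HC 30 DPI against CTX 30 DPI was 0.91 ± 0.79 (adjusted p = 1).

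Pmp22 was at 293, 468 and 249 in C, at 242, 329.8 and 295 in CTX 2 DPI and at 494, 1396 and 231 in CTX-HC 2 DPI. It was at 1129, 204 and 708 in CTX 30 DPI and at 633, 1149 and 324 in CTX-HC 30 DPI. The library CTX 30 DPI 1, which had no HC, was here nearly as high as CTX-HC 30 DPI 2. Cnp was at 194, 220.3 and 179.8 in C, at 180.0, 276 and 239 in CTX 2 DPI and at 385, 496 and 195 in CTX-HC 2 DPI, and at 30 DPI it was at 327, 172 and 303 in CTX and at 221, 358 and 811 in CTX-HC. Unlike the other sheath genes, it was highest in CTX-HC 30 DPI 3, the library that stood apart.

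Prx, named here for its values in soleus, was at 83.9, 818 and 93.8 in CTX-HC 2 DPI and at 218, 736 and 76.8 in CTX-HC 30 DPI, against 106 to 224 in C, 55.8 to 196 in CTX 2 DPI and 32.2 to 266 in CTX 30 DPI. Over the 13 sheath genes tested, CTX-HC 2 DPI 2 was the highest of its group for 13 and CTX-HC 30 DPI 2 for 12. CTX 2 DPI 1 and CTX 30 DPI 2 were each the lowest of their group for 13, and C 3 was the lowest of the controls for 12. Against the mean of C, the median over the sheath genes was 2.33 in CTX-HC 2 DPI 2, and 0.14 and -0.49 in the libraries CTX-HC 2 DPI 1 and 3. It was 0.70, 2.27 and -0.36 in CTX-HC 30 DPI, and 1.17, -1.29 and 0.93 in CTX 30 DPI. The controls themselves ran from -0.63 to 0.53.

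Sox10 followed the sheath genes, with 18.01, 33.0 and 11.6 in C, 16.6, 19.6 and 24.3 in CTX 2 DPI, 39.4, 70.8 and 15.9 in CTX-HC 2 DPI, 52.6, 3.74 and 44.9 in CTX 30 DPI and 43.9, 90.6 and 17.8 in CTX-HC 30 DPI. Egr2 was at 9.25, 24.4 and 30.5 in C, 15.9, 68.8 and 27.4 in CTX 2 DPI and 72.2, 121 and 33.5 in CTX-HC 2 DPI, and at 30 DPI at 52.0, 13.9 and 24.5 in CTX and 10.8, 36.8 and 82.5 in CTX-HC. Each CTX-HC 2 DPI library was above each C library for Egr2, with a log2 fold change of 1.74 ± 0.78 and an adjusted p of 0.129 in limma. Egr2 and Pou3f1 were the 2 of the 29 genes (6.90%) with no overlap in this direction, which 25.7% of all genes showed. Pou3f1 was at 17.4, 13.8 and 19.1 in C, 11.7, 14.7 and 8.62 in CTX 2 DPI and 28.7, 32.9 and 20.6 in CTX-HC 2 DPI, so that the last group lay above both others. Its log2 fold change against CTX 2 DPI was 1.17 ± 0.90. At 30 DPI Pou3f1 ranged from 2.58 to 64.1 over the 6 libraries.

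For axon contact, L1cam was at 58.9, 53.9 and 137 in C, 72.9, 63.03 and 73.2 in CTX 2 DPI, 170.3, 133 and 57.7 in CTX-HC 2 DPI, 86.7, 42.6 and 92.6 in CTX 30 DPI and 96.2, 83.1 and 148 in CTX-HC 30 DPI. Cadm4 was at 46.1, 46.1 and 64.5 in C, 67.0, 61.7 and 114 in CTX 2 DPI, 49.4, 258 and 57.96 in CTX-HC 2 DPI, 73.8, 32.7 and 72.5 in CTX 30 DPI and 60.8, 187 and 14.5 in CTX-HC 30 DPI. Nfasc was at 17.1, 24.2 and 19.9 in C, 8.18, 36.6 and 33.3 in CTX 2 DPI, 24.3, 103 and 15.6 in CTX-HC 2 DPI, 32.9, 6.55 and 21.3 in CTX 30 DPI and 18.1, 73.8 and 79.2 in CTX-HC 30 DPI. Cadm4 had its 2 highest values in the libraries that were highest for the sheath genes, and L1cam did not. Gldn ranged from 3.56 to 50.9 over the 15 libraries.

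Ngfr, the low-affinity neurotrophin receptor that rises in repair Schwann cells, was at 16.9, 13.5 and 23.4 in C, 48.6, 43.9 and 17.1 in CTX 2 DPI and 124, 61.2 and 22.1 in CTX-HC 2 DPI. It was at 44.4, 13.9 and 49.1 in CTX 30 DPI and at 35.2, 16.4 and 60.9 in CTX-HC 30 DPI. Here the highest library was CTX-HC 2 DPI 1, which was not high for the sheath genes, and the library CTX-HC 30 DPI 2 was low. The log2 fold change of CTX-HC 2 DPI against C was 1.61 ± 0.68 with an adjusted p of 0.115 in limma, and 1 library, CTX-HC 2 DPI 3, decided the call, since without it the value was 2.25 and passed.

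Dhh was at 35.6, 23.9 and 62.4 in C, 41.5, 82.1 and 48.4 in CTX 2 DPI, 65.3, 116 and 26.5 in CTX-HC 2 DPI, 47.4, 24.7 and 39.3 in CTX 30 DPI and 34.3, 71.4 and 9.97 in CTX-HC 30 DPI. Erbb3 was at 180.3, 213 and 144 in C, 127, 416 and 156 in CTX 2 DPI, 199, 249 and 157 in CTX-HC 2 DPI, 204, 123 and 178 in CTX 30 DPI and 205, 231 and 449.7 in CTX-HC 30 DPI. Both groups of HC libraries overlapped their CTX group for Dhh, and CTX-HC 30 DPI lay above CTX 30 DPI for Erbb3 with a log2 fold change of 0.75 ± 0.42 (adjusted p = 1 in limma), a separation that 1.43% of all genes had.

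**Figure D4:**
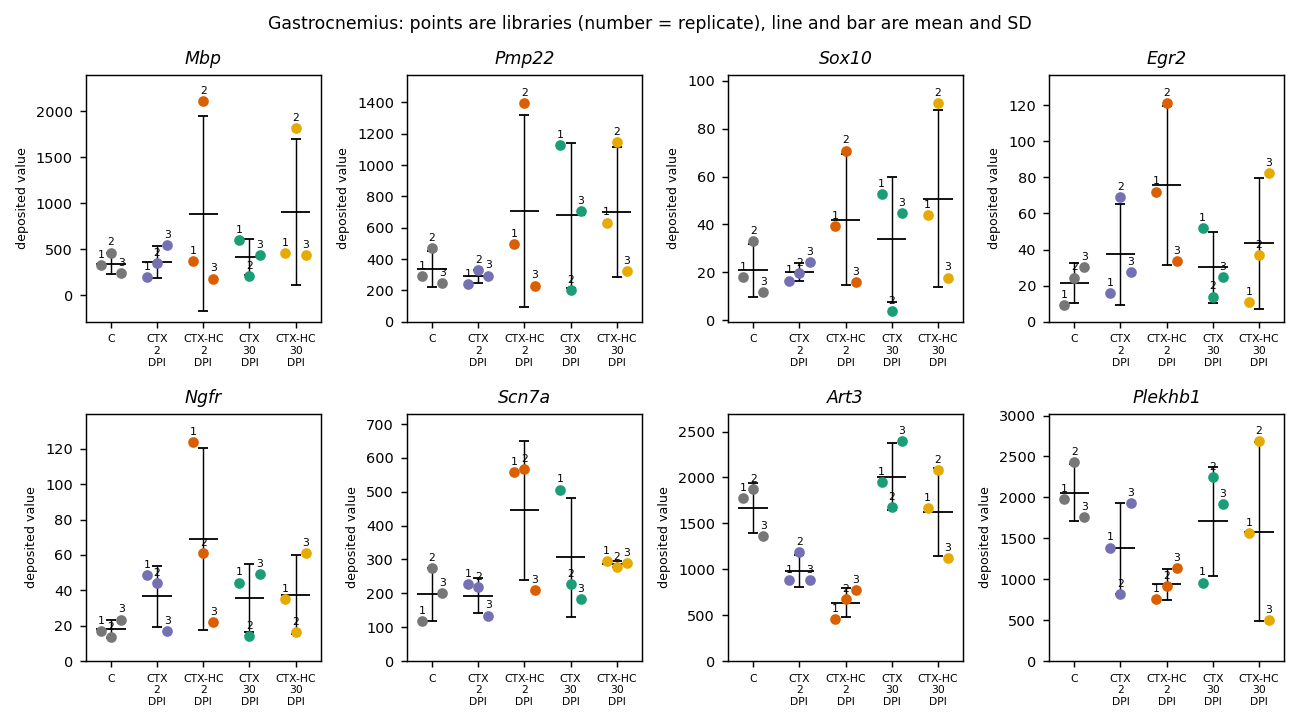
Deposited values (y axes, normalized by the median of ratios) of 8 genes in gastrocnemius, with 1 point per library numbered by replicate, the mean as a line and the SD as a bar. Replicate 2 of each CTX-HC group is the highest library for Mbp and Sox10, replicate 1 of CTX-HC 2 DPI is the highest for Ngfr, and all CTX-HC 2 DPI libraries lie below all C libraries for Art3 and Plekhb1.

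Art3, an ADP-ribosyltransferase gene, was at 1774, 1872 and 1364 in C, 879.5, 1186 and 882 in CTX 2 DPI and 459, 674 and 769.5 in CTX-HC 2 DPI. The groups did not overlap, with CTX-HC 2 DPI the lowest and C the highest. Every CTX-HC 2 DPI library was below every C library for Art3 and Plekhb1, 2 of the 29 genes, and for 25.2% of all genes. Every CTX 2 DPI library was below every C library for 15.6% of all genes, and every CTX-HC 2 DPI library below every CTX 2 DPI library for 7.35%. Against C, Art3 fell by 1.41 on the log2 scale in CTX-HC 2 DPI (SE 0.25, adjusted p = 0.0141 in limma). The change in CTX 2 DPI was -0.77 ± 0.25 with an adjusted p of 0.273, and the difference between CTX-HC 2 DPI and CTX 2 DPI was -0.65 ± 0.25 with an adjusted p of 0.662. At 30 DPI Art3 was at 1947, 1681 and 2397 in CTX and at 1668, 2084 and 1124 in CTX-HC. The call was lost without C 1 (-1.36), C 2 (-1.33) or CTX-HC 2 DPI 1 (-1.20).

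Plekhb1, a membrane protein with a pleckstrin homology domain, was at 1975, 2436 and 1754 in C, 1387, 818 and 1932 in CTX 2 DPI and 755, 917 and 1139.9 in CTX-HC 2 DPI. It was at 957, 2246 and 1916 in CTX 30 DPI and at 1559, 2687 and 498 in CTX-HC 30 DPI, the lowest again in the library that stood apart. Its log2 fold change in CTX-HC 2 DPI against C was -1.14 ± 0.51 with an adjusted p of 0.130. Scn7a was at 118, 274 and 200.1 in C, 228, 218 and 134 in CTX 2 DPI, 559, 567 and 209 in CTX-HC 2 DPI, 506, 228 and 184 in CTX 30 DPI and 296, 278 and 288 in CTX-HC 30 DPI. Its log2 fold change was 1.12 ± 0.45 for CTX-HC 2 DPI against C, with an adjusted p of 0.100, and 1.1 ± 0.45 against CTX 2 DPI. Without CTX-HC 2 DPI 3 the first of these was 1.59 and passed.

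Markers of myofibres differed in the same comparison. In CTX-HC 2 DPI against C, 7 of the 8 myofibre markers had a lower mean and 2 passed an adjusted p of 0.05, Myh7 (-4.42) and Tnnt1 (-2.53), with a median of -1.35 over the 8. The sum of the 8 was 2351060 to 3150490 in C and 910261 to 1408880 in CTX-HC 2 DPI. Their part in the Art3 result was not tested. Art3 and Plekhb1 averaged 1384 and 1532 over the gastrocnemius libraries, against 286 for Scn7a and 1.34 to 21.4 for the other general Schwann genes. Whether Art3 and Plekhb1 mark Schwann cells in this muscle was not tested.

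By comparison, the counts were as follows. For CTX 2 DPI against C none of the 29 genes passed an adjusted p of 0.05, as for all 14033 genes (0% called). At an unadjusted p under 0.05 there were 2095 of all genes (14.9%). None of the 29 was at the limit of the study, which 4.73% of all genes reached. The median was -0.06, and leaving out single libraries moved it between -0.32 (without C 3) and 0.38 (without CTX 2 DPI 1). For CTX-HC 2 DPI against C, 1 of the 29 passed against 9.93% of all genes, and 5 were at the limit of the study (Egr2, Ngfr and Scn7a higher, Art3 and Plekhb1 lower) against 18.5% of all. The share among the 29, 17.2%, was near that of all genes. The median was 0.59, but 8.22e-05 without CTX-HC 2 DPI 2.

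For CTX-HC 2 DPI against CTX 2 DPI none of the 29 and none of all genes passed (0%, with 1005 genes, 7.16%, at an unadjusted p under 0.05). Scn7a and Cdh19 were at the limit of the study, against 1.77% of all genes, Cdh19 with 22.9, 45.9 and 9.34 against 4.60, 5.26 and 8.82 and a log2 fold change of 1.69 ± 0.77. In Cdh19, Gjc3, Pou3f1 and Ugt8a every CTX-HC library was above every CTX library, 4 of 29 against 6.18% of all genes. The median over the 29 was 0.65, and -0.07 without CTX-HC 2 DPI 2. The direction of the whole list at 2 DPI thus rested on 1 library.

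At 30 DPI no gene of the table passed against C in either injured group or between them (0% in each). At an unadjusted p under 0.05 there were 437 genes for CTX (3.11%), 388 for CTX-HC (2.76%) and 106 between the groups (0.755%). The limit of the study was reached by none of the 29 in CTX (1.63% of all genes), by Cnp in CTX-HC (1.40% of all genes) and by none between the groups (0.428%). Cnp had a log2 fold change of 1.02 ± 0.44, with its highest value (811) in CTX-HC 30 DPI 3, the library that stood apart. In CTX-HC 30 DPI 5 of the 29 genes, Cnp, Drp2, Mag, Ncmap and Scn7a, had every library above every C library, which 4.72% of all genes had. For Cnp the margin was small, with 220.8 in CTX-HC 30 DPI 1 and 220.3 in C 2. The median against C was 0.17 in CTX and 0.73 in CTX-HC, and between the groups it was 0.26.

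These medians depended on single libraries. In CTX 30 DPI the median was 0.90 without CTX 30 DPI 2 and -0.21 without CTX 30 DPI 1. In CTX-HC 30 DPI it was 1.15 without the library that stood apart, with all 29 genes above C, and 0.35 without CTX-HC 30 DPI 2. Between CTX-HC and CTX at 30 DPI it was 0.92 without CTX-HC 30 DPI 3 and -0.31 without CTX 30 DPI 2. The change of the HC effect from 2 to 30 DPI passed for none of the 29 or of all genes (0%, with 355 genes, 2.53%, at an unadjusted p under 0.05). The median of this change over the 29 was -0.23. That median ran from -0.84 without CTX-HC 2 DPI 3 to 0.37 without CTX-HC 2 DPI 2.

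The roles were read apart to see whether repair genes and myelin genes moved in opposite ways after injury. At 2 DPI against C the median of the 13 sheath genes was -0.17 in CTX and 0.47 in CTX-HC, and that of the 12 repair genes tested was 0.79 and 0.93. Of the repair genes, Atf3 rose in CTX-HC 2 DPI with a log2 fold change of 2.25 (adjusted p = 0.0219 in limma). There 6 of the 12 were at the limit of the study, where 18.5% of all genes were. At the same limit in CTX 2 DPI, 2 of the 12 were higher and 1 was lower, beside 4.73% of all genes. None of the 12 passed the adjusted test in CTX 2 DPI, and neither did any other gene (0%). Ngfr and L1cam, of the 32 genes, are also in the repair list. The sum of 6 fibroblast markers was 9525 to 13382 in C, 21817 to 47921 in CTX 2 DPI and 21694 to 83388 in CTX-HC 2 DPI, and its part in the repair list was not tested. The 6 general Schwann genes had a median of -0.71 in CTX 2 DPI and 0.42 in CTX-HC 2 DPI. By library the latter was -0.06, 1.34 and -0.70 from the mean of C, and that of the sheath genes was 0.14, 2.33 and -0.49, so both positive medians leaned on CTX-HC 2 DPI 2. In CTX-HC 2 DPI 2 the sheath genes were highest, while the top library for Ngfr was CTX-HC 2 DPI 1. Sox2, Shh, Olig1 and Gfap did not exceed 6.57 in any gastrocnemius library.

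**Figure D5:**
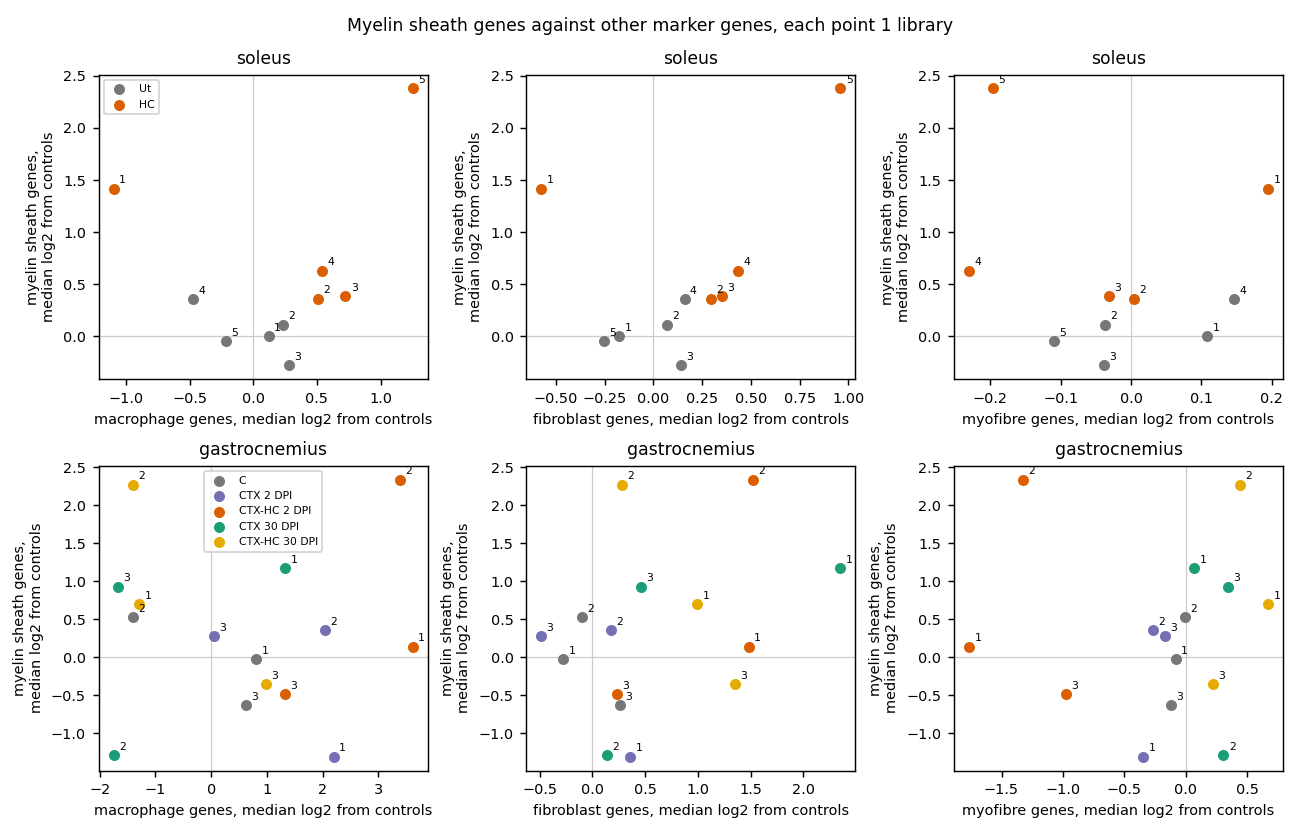
Median log2 difference from the controls of the 13 myelin sheath genes tested (y axes) against that of macrophage, fibroblast and myofibre markers (x axes), with soleus above and gastrocnemius below and 1 point per library numbered by replicate. In soleus the highest points, HC 1 and HC 5, lie at opposite ends of the macrophage and fibroblast axes, and in gastrocnemius the highest points, replicate 2 of each CTX-HC group, lie far apart on the macrophage axis.

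Macrophage markers differed widely within groups of gastrocnemius. The sum of the 8 markers was 999 to 4412 in C, 2473 to 12284 in CTX 2 DPI, 6914 to 31182 in CTX-HC 2 DPI, 737 to 6876 in CTX 30 DPI and 1023 to 5473 in CTX-HC 30 DPI. CTX-HC 2 DPI 2 and CTX-HC 30 DPI 2, the highest libraries for the sheath genes, had 24302 and 1030. CTX 2 DPI 3 had the 2473 and CTX-HC 30 DPI 3 the 5473. The part of cell content in the sheath values was not tested. Neuron markers summed to 100.1 to 454 over the 15 libraries, of which Uchl1 alone gave 68.4 to 369.7, and the 6 oligodendrocyte markers summed to at most 3.84.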

How the data were processed

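RNA-seq values of 10 soleus and 15 gastrocnemius libraries were used. The deposited signal values are gene counts that the authors divided by median-of-ratios size factors (Illumina DESeq2 package 1.1), after trimming (FASTQ toolkit 1.0.0) and alignment (RNAseq Alignment 2.0.2, genome mm10). Whole reads could not be recovered from them, so no count test was run. Values were tested as log2(value + 1) with limma 3.58.1 in R 4.3.3, all groups of a table together, with a trend of the variance and Benjamini-Hochberg adjustment over all genes tested at 0.05. Depth was estimated from the most frequent value below 2, taken as 1 read. The test was tried on simulated data. The genes, roles and lists were chosen with earlier results of these data known. For gastrocnemius, values are given in every library for up to 3 genes of each role with the largest mean, and other genes named were chosen after their values were seen. Certain genes of the further lists were counted and are not reported here by name. Alternatives were other pseudocounts, no limit on low values, quantile normalization, a replicate block, the series of the library numbers as a covariate (gastrocnemius), fits of the groups compared alone and leaving out libraries. Liver and AML12 libraries were not used here.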

Additional observations from a re-analysis of the deposited data

Results flagged for a closer look

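In 56 soleus groups of 5 mice, 3 held a mouse far from the other 4 by Dixon's test, and chance alone flags about 1 in 20 such groups. Prx was at 202.7 in Ut 4 and at 110.0 to 133 in the other Ut mice. Egr2 was at 27.0 in Ut 5, against 9.85 to 14.1, and L1cam at 65.3 in the same mouse, against 32.01 to 38.9. All 3 are control mice with high values, which makes the difference between HC and Ut smaller for these genes.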

How the results depend on the processing

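In soleus 0 of the genes passed the adjusted test under every alternative tried, and 11 were at the limit of the study. With a pseudocount of 5 these were 7, as low values weigh less there, and without HC 1 and HC 5 together they were 3. Leaving out 1 mouse at a time gave 5 to 14 (5 without HC 5, 14 without HC 3), and the median log2 fold change of 0.80 ranged from 0.60 to 0.99. Replicate numbers shared by Ut and HC mice did not pair them, apart from replicate 1. The correlation of the deviations was 0.403 for replicate 1, where Ut 1 and HC 1 were each other's best match. It was 0.0704, 0.00477, 0.0284 and -0.112 for replicates 2 to 5. A replicate block gave 0 genes passing, 11 at the limit of the study and a median of 0.80. In CTX-HC 2 DPI against C the 1 gene that passed became 5 at the limit of the study, 2 in a fit of the 2 groups alone, 2 with CTX 2 DPI 3 and CTX-HC 30 DPI 3 left out (Plekhb1, -1.14, added to Art3 in both) and 0 to 3 with 1 library left out (0 without C 1, C 2 or CTX-HC 2 DPI 1). At the limit of the study CTX-HC 2 DPI against CTX 2 DPI gave 2 and CTX-HC 30 DPI against C gave 1, where the adjusted test gave 0. The 11 soleus genes at the limit of the study, and the 5 in CTX-HC 2 DPI against C, kept their direction under these alternatives. Other soleus genes did not, since without HC 1 and HC 5 the log2 fold change was -0.08 for Fa2h, -0.04 for Plekhb1, -0.01 for Gldn and -0.01 for Cntf. Genes with values near 10, such as Ugt8a, Nfasc and Pllp, rest on few reads.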
